A study of Rattus norvegicus with 25 samples.

Results

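The comparison concerned first molars of the upper jaw in Sprague–Dawley rats that were replanted after drying for 60 min (delayed replantation, DR) or 5 min (immediate replantation, IR) and collected 3 days later. It used 12 of the series' 25 libraries: all 6 labelled DR and all 6 labelled IR at day 3, chosen by their titles and compared across all genes. RNA came from the tooth together with its periodontal ligament, and the labels give postnatal day 21 as the age. Extraction, drying and replantation were common to both arms, so the only labelled difference was the drying time. The other libraries are 12 of replanted molars at day 7 and 1 of an untreated molar (NT), which has no replicate and is given only as a reference level. The labels do not say whether the replicates of an arm were separate animals, so p-values measure the spread between these libraries.

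A replanted tooth is held again by the periodontal ligament, a collagen-rich tissue between root and bone whose cells on the root surface can be killed by drying. In the first days the socket fills with clot, neutrophils and macrophages, and granulation tissue forms. Osteoclasts, the cells that dissolve bone and dentine, can then resorb the root surface, or bone-forming cells can fuse the root to bone. Periosteum, bone, gingiva, muscle and nasal lining lie close to the root of this molar, and tissue collected with it can carry any of them.

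Counts assigned to genes, in units of 1000000, were 6.17 to 7.51 in the DR libraries and 5.79 to 8.11 in the IR libraries, with 12163 to 12959 and 11342 to 13277 genes detected. The QuantSeq kit reads the 3′ end of each transcript, so a count is not divided by transcript length and levels are compared between libraries, not between genes. Levels below are log2 CPM (counts per 1000000 counts of the library) after scaling by trimmed mean of M-values (TMM), and a log2 fold change above 0 is higher in DR. The test was edgeR's quasi-likelihood test, and genes are named as called where its p, adjusted by Benjamini and Hochberg's method, was under 0.05.

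IR replicate 6 stood apart from its own group. Its correlation with the other 5 IR libraries, over genes on the log2 CPM scale, was 0.591 to 0.694, whereas with DR replicate 3 it was 0.929. DR replicates 1, 2 and 3 lay on the same side of the first principal component as IR replicate 6, and IR replicates 3, 4 and 5 formed a cluster of their own on the second. Results are therefore given with all 12 libraries and list medians also without IR replicate 6 (11 libraries), where the median over all genes was -0.10. Which tissue or handling the library labelled IR replicate 6 reflects was not tested.

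**Figure D1:**
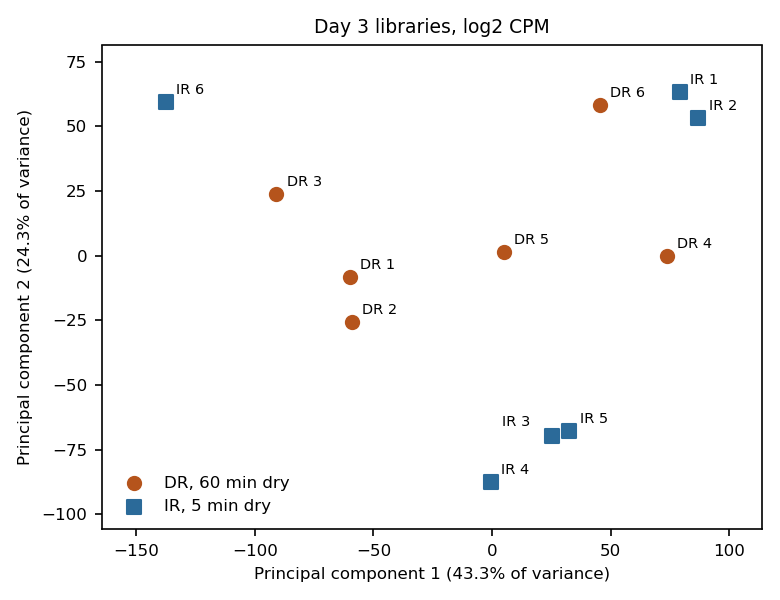
Principal components of log2 CPM in the 12 day 3 libraries; each point is a library, circles are DR (60 min) and squares are IR (5 min). The first component (43.3% of variance) sets IR replicate 6 and DR replicates 1 to 3 to the left, and the second (24.3%) sets IR replicates 3 to 5 at the bottom.

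No gene was called between 60 and 5 min of drying in the edgeR test of all 12 libraries. Of 10638 genes tested with edgeR, 0 were called higher (0%) and 0 lower (0%), the smallest adjusted p was 1, and 98 had an unadjusted p under 0.05. That is a smaller share than the 0.05 that evenly spread p-values would give if no gene differed. The reason was not tested. The median log2 fold change over all genes was -0.01 and 48% of genes were above 0. DESeq2 and limma-voom also called 0 genes, with 328 and 199 genes at an unadjusted p under 0.05. In contrast, limma-voom with sample quality weights called 836 genes of the same 12 libraries, and edgeR with the mean levels of the muscle, lipid and nasal lists as 3 covariates called 406. Those quality weights were 4.14, 3.06 and 1.84 for IR replicates 3, 4 and 5. They were 0.206 to 0.414 for IR replicates 1, 2 and 6, and 0.487 to 1.79 for the DR libraries. The spread between libraries of an arm was wide: Elovl3, for example, ranged from 2.83 to 10.93 log2 CPM within DR.

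In the edgeR test without covariates, the count turned on IR replicate 6. Without it, 14 of 10864 genes were called higher in DR (0.129%) and 0 lower (0%), and 1371 genes had an unadjusted p under 0.05. Leaving out any other library gave 0 calls and 53 to 236 genes at that p. In a fit of 23 libraries, all replanted libraries of both days less IR replicate 6, 526 of 11627 genes were called higher in DR at day 3 (4.52%) and 50 lower (0.43%), and all 14 genes were among them. IR replicate 6 was the highest IR library for 516 of the 518 of these higher genes that passed the count filter at day 3. With IR replicate 6 kept, the same fit of 24 libraries called 0 genes, so that order follows in part from how the genes were chosen. The 23-library fit takes its spread from both days. In earlier results of these data, day 3 libraries spread more than those of day 7. Genes named below as called in the 23-library fit, other than the 14, were not called without IR replicate 6 at day 3 alone.

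**Figure D2:**
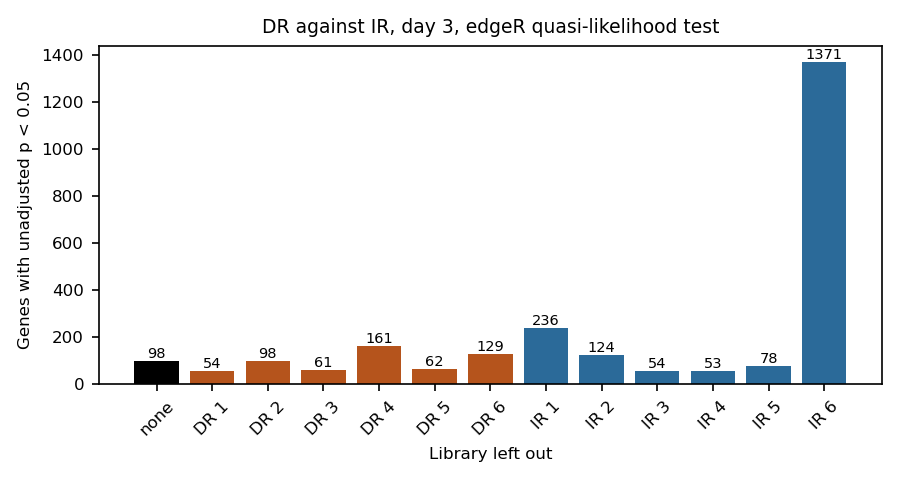
Number of genes with an unadjusted p under 0.05 in edgeR's quasi-likelihood test of DR against IR at day 3, with all libraries (black) and with each library left out in turn. The count is 98 with all libraries, 53 to 236 without any library but IR replicate 6, and 1371 without that library.

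The 14 genes called higher in DR without IR replicate 6 include several of lipid synthesis and handling. Elovl3, an elongase of very long chain fatty acids, and Mogat1, which makes diacylglycerol from monoacylglycerol, head the list of lipid-secreting gland genes. With them were Sptlc3, a subunit of the enzyme that starts sphingolipid synthesis, Fabp2, a fatty acid binding protein, Aadac, a lipid esterase, and its relative Aadacl3. Tm6sf2, which acts in lipid loading of lipoproteins, Tmem86a, a lysoplasmalogenase, the dehydrogenase Sdr16c6, the aldo-keto reductase Akr7a3, the protease Ctse (cathepsin E), the actin-severing protein Scin, the sodium pump subunit Atp1a4 and RGD1308878 make up the rest.

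Elovl3 had a lowest, median and highest level of 2.83, 9.72 and 10.93 log2 CPM in DR. In IR replicates 1 to 5 it did not pass 1.95 log2 CPM, while IR replicate 6 reached 11.31 and NT stood at 1.07. 5 of the DR libraries were thus far above 5 of the IR libraries, DR replicate 4 was close to them, and IR replicate 6 was above every DR library. The log2 fold change of Elovl3 was 1.16 (SE 1.93) with all libraries (edgeR adjusted p = 1) and 9.21 (SE 1.35) without IR replicate 6 (edgeR adjusted p = 0.0431).

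Mogat1 followed the same order, with 2.37, 9.48 and 11.18 log2 CPM as lowest, median and highest in DR, at most 1.59 in IR replicates 1 to 5, and 11.52 in IR replicate 6. Ctse, present at some level in every library, had 4.81, 11.57 and 12.50 log2 CPM in DR, 3.22 to 4.62 in IR replicates 1 to 5, 12.85 in IR replicate 6 and 6.15 in NT. DR replicate 4 was the lowest DR library for all 14 genes, IR replicate 6 was the highest IR library for all 14, and for 13 of them it was above all 6 DR libraries.

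For 3 of the 14 genes the 5 other IR libraries held 3 counts or fewer in all, so no fold change is given for them. RGD1308878 had 1 count in those libraries together against 2 to 1832 in each DR library and 2022 in IR replicate 6. Atp1a4 had 1 count against 7 to 111 in each DR library, and Fabp2 had 3 counts against 3 to 571. Among the other 11 genes, log2 fold changes without IR replicate 6 ran from 5.45 (SE 0.892, Tm6sf2) to 9.70 (SE 1.45, Sdr16c6). Adjusted p for the 14 genes ran from 0.0431 to 0.0493 in edgeR. With all 12 libraries their log2 fold changes lay between 0.49 and 1.47, with SE of 1.38 to 2.02.

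**Figure D3:**
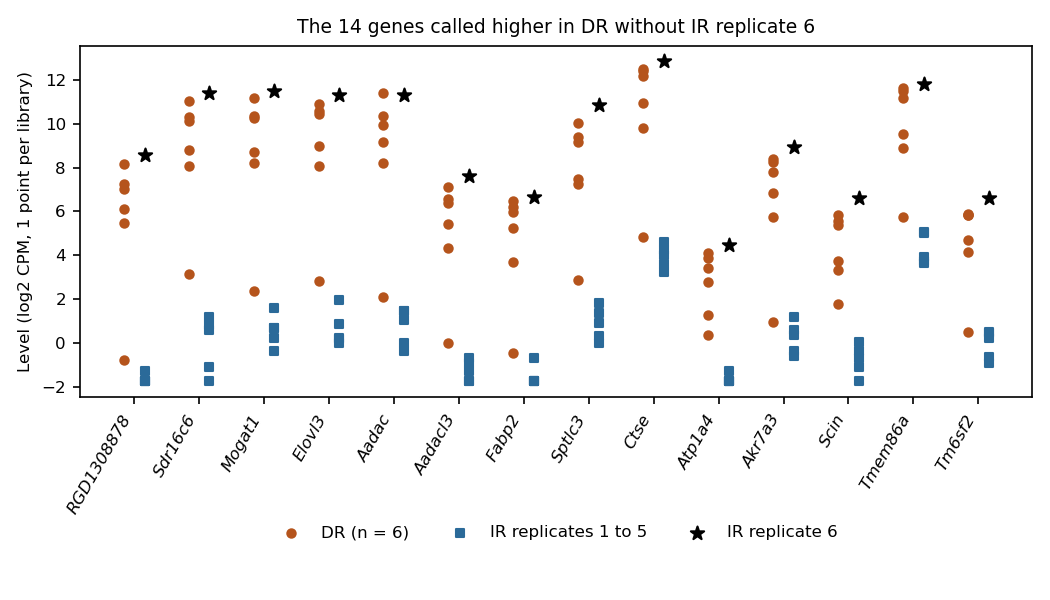
Levels (log2 CPM) of the 14 genes called higher in DR when IR replicate 6 was left out; each point is a library, with DR as circles, IR replicates 1 to 5 as squares and IR replicate 6 as a star. The star is above all DR circles for 13 of the 14 genes, and the lowest circle of every gene is DR replicate 4.

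Because these genes were high and low in the same libraries, their promoters were read from RefSeq (rat assembly GRCr8), where 13 of the 14 genes had an entry. The sequences of Elovl3, at chr1:254938481-254938730 (+ strand), and Mogat1, at chr9:87429177-87429426 (+ strand), run up to the annotated transcription start. Capitals mark the CCAAT box, searched as CCAAT on both strands, and AGGTCA, the core element of many nuclear receptors, also on both strands.
Elovl3: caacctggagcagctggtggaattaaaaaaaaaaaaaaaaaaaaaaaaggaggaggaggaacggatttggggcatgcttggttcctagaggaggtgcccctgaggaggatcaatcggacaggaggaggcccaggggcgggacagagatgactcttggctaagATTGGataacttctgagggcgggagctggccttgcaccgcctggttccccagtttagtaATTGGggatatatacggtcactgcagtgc
Mogat1: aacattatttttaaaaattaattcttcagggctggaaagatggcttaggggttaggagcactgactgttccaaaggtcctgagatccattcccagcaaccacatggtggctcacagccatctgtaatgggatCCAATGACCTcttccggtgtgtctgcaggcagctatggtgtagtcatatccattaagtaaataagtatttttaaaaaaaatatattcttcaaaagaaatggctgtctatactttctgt
The Elovl3 promoter holds 2 CCAAT matches, each on the reverse strand, and the capitals in Mogat1 are a CCAAT match overlapping a reverse AGGTCA match. CCAAT was present in 7 of the 13 promoters and in 34% of 33469 RefSeq promoters cut to the same length. AGGTCA was present in 1 of the 13 and in 14.1% of all promoters. Among 8460 promoters of tested genes, the shares were 35.4% for CCAAT and 10.4% for AGGTCA. These matches are letters in a window and were not tied to binding of any factor.

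In the 23-library fit, the wider list of lipid-secreting gland genes had 8 of 11 members called higher in DR, against 4.52% of all genes. Without IR replicate 6 at day 3 alone, 2 of the 11 were called. This list and those below were chosen with earlier results of these data known. Both fits leave out the IR library of highest lipid share, so such counts are a description and not a test. Thrsp, which drives the transcription of lipogenic enzymes, had 5.14, 12.60 and 14.09 log2 CPM in DR, 2.54 to 5.62 in IR replicates 1 to 5 and 14.51 in IR replicate 6. The enzymes of fatty acid synthesis stood in the same order. Fasn, fatty acid synthase, had a log2 fold change of 4.59 (SE 0.891), Acly, which supplies acetyl-CoA, 4.11 (SE 0.788), and Scd1, a desaturase, 2.32 (SE 0.511). Plin2, which coats lipid droplets, had 4.22 (SE 0.962). The adipocyte list, with a median of 0.48 in 12 libraries and 0.77 without IR replicate 6, had 2 of 6 members called, Fabp4 with 2.49 (SE 0.603) and Pparg, the receptor that governs fat cell differentiation, with 4.32 (SE 1.23). Adipoq, a defining fat cell gene, was low, with 0.63 to 2.99 log2 CPM in DR, -1.77 to 2.60 in IR and 4.77 in NT. With all 12 libraries the lipid list had a median log2 fold change of 0.92 and 0 called members, and Fabp4 stood at -0.40 (SE 1.16).

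The lipid list took 0.113% of counts at the lowest, 2.07% at the median and 3.8% at the highest in DR, and 0.0179%, 0.087% and 4.71% in IR. Two-sided exact permutation of the 12 libraries gave p = 0.346 for the difference of means (0.462 adjusted over 4 shares). The smallest p that 6 against 6 libraries allow is 0.00216. Without IR replicate 6 the difference was 1.86 percentage points with an exact permutation p of 0.0238, unadjusted. Leaving out any other library gave an unadjusted exact permutation p of 0.184 to 0.537. In bulk tissue, more cells of a type and more RNA per cell cannot be told apart.

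Genes of the Nrf2 antioxidant response, many of which supply NADPH that fatty acid synthesis also uses, had 6 of 19 members called higher in the 23-library fit, against 4.52% of all genes. Slc7a11, the cystine importer, had a log2 fold change of 3.57 (SE 0.713), the malic enzyme Me1, also a member of the lipid list, 4.11 (SE 0.724), and the glutathione transferase Mgst1 2.81 (SE 0.621). Taldo1 and Tkt, enzymes of the pentose phosphate pathway, had 2.17 and 1.17, and the peroxiredoxin Prdx1 had 1.31. Me1 had 5.79, 9.65 and 10.39 log2 CPM in DR, 5.10 to 5.87 in IR replicates 1 to 5 and 11.10 in IR replicate 6, so IR replicate 6 was the highest library and DR replicate 4 the lowest DR library, as for Elovl3. The textbook Nrf2 targets Hmox1, haem oxygenase, and Nqo1, a quinone reductase, were not called. Hmox1 spanned 7.33 to 9.14 log2 CPM in DR and 5.06 to 8.69 in IR, and Nqo1 spanned 3.57 to 5.22 and 3.76 to 5.17, so the arms overlapped for both. With all 12 libraries 15 of the 19 members had a log2 fold change above 0, the median was 0.42 (0.57 without IR replicate 6) and 0 were called. Without IR replicate 6 at day 3 alone, 0 were called as well.

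Subunits of mitochondrial oxidative phosphorylation had log2 fold changes above 0 for 22 of 22 tested members with all 12 libraries, at a median of 0.26 against -0.01 for all genes, and 0 were called. Without IR replicate 6 at day 3 alone the median was 0.42, and again 0 were called. In the 23-library fit 4 of 22 were called higher, against 4.52% of all genes: Ndufb9 of complex I at 0.53 (SE 0.155), Sdhb and Sdhc of complex II at 0.68 (SE 0.178) and 0.63 (SE 0.155), and Cox4i1 of complex IV at 0.81 (SE 0.208). The list's mean level was 6.79 to 7.77 log2 CPM in DR, and its highest value in any library was 7.91 in IR replicate 6. In contrast 2 of 24 cytosolic ribosomal protein genes were above 0, at a median of -0.10 (-0.19 without IR replicate 6). The chaperone and unfolded protein list had a median of 0.11 (0.12 without IR replicate 6) with 12 of 20 members above 0. Its called members in the 23-library fit were Hspd1, a mitochondrial chaperone, at 0.82 (SE 0.22) and Atf4, a stress transcription factor, at 0.81 (SE 0.187), while Hspa5, the main endoplasmic reticulum chaperone, stood at -0.01 (SE 0.232) with 12 libraries.

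With all 12 libraries, skeletal muscle genes had the highest list median, 2.57 on the log2 scale. Of 17 members, 17 were above 0 and 0 were called. Without IR replicate 6 the muscle median was 2.24, below the 4.05 of the lipid list. Acta1, the actin of muscle fibres, had 3.37, 8.59 and 11.08 log2 CPM in DR and 1.10, 4.78 and 9.52 in IR, and Ckm, muscle creatine kinase, had 1.61, 7.84 and 10.23 in DR and -1.31, 3.58 and 7.83 in IR. The arms overlapped, because DR replicate 6 was low and IR replicate 1 high for both genes. Muscle genes took 0.00755% to 1.33% of counts in DR (median 0.306%) and 0.00285% to 0.442% in IR (median 0.019%; exact permutation p = 0.0801, adjusted 0.32 over 4 shares). Unadjusted exact permutation p was 0.0238 without DR replicate 6, 0.0346 without IR replicate 1 and 0.0476 without DR replicate 4. It was 0.0671 to 0.158 without any other library. The calcium buffer Pvalb, the small heat shock protein Hspb6 and Rabep2 were among the higher genes of smallest p, and each was highest in DR replicates 1 and 5, the libraries of highest muscle share. Their part in the result was not tested.

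Genes of nasal and salivary glands went the other way, with 2 of 12 members above 0 and a median of -1.06 (-1.38 without IR replicate 6). Bpifa1, an abundant secreted protein of the airway lining, had 10.33, 12.53 and 14.71 log2 CPM in DR and 8.77, 13.30 and 15.82 in IR. IR replicates 3, 4 and 5 held its 3 highest levels, and IR replicates 1 and 2 its 2 lowest. Spt1, a salivary protein and one of the members above 0, had a log2 fold change of 2.13 (SE 1.28), with 6.50 log2 CPM in DR replicate 5 and -1.77 to 3.23 in the other DR libraries against -0.29 to 4.07 in IR. The list took 0.149% to 5.14% of counts in DR and 0.0736% to 24.3% in IR (exact permutation p = 0.281, adjusted 0.462). Olfactory genes had 0 of 9 members above 0 (median -0.58, -0.91 without IR replicate 6, but 0.63 with limma-voom) and genes of motile cilia 0 of 9 (median -0.91, and -1.21 without IR replicate 6). Omp, the defining olfactory marker, had 0 counts in every DR library and at most 6 in an IR library. The ciliary regulator Foxj1 was highest in IR replicates 3, 4 and 5, at 5.27, 5.71 and 5.48 log2 CPM, against 1.83 to 4.54 in DR. Nasal gland genes took the other sign when the 6 libraries IR 3, 4 and 6 and DR 1, 2 and 3 were left out, to a median of 1.51. IR replicates 3 and 4 had the highest nasal shares at day 3, 21.1% and 24.3%, and IR replicate 5 (5.84%) was kept. That change of sign thus follows in part from which libraries were left out.

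**Figure D4:**
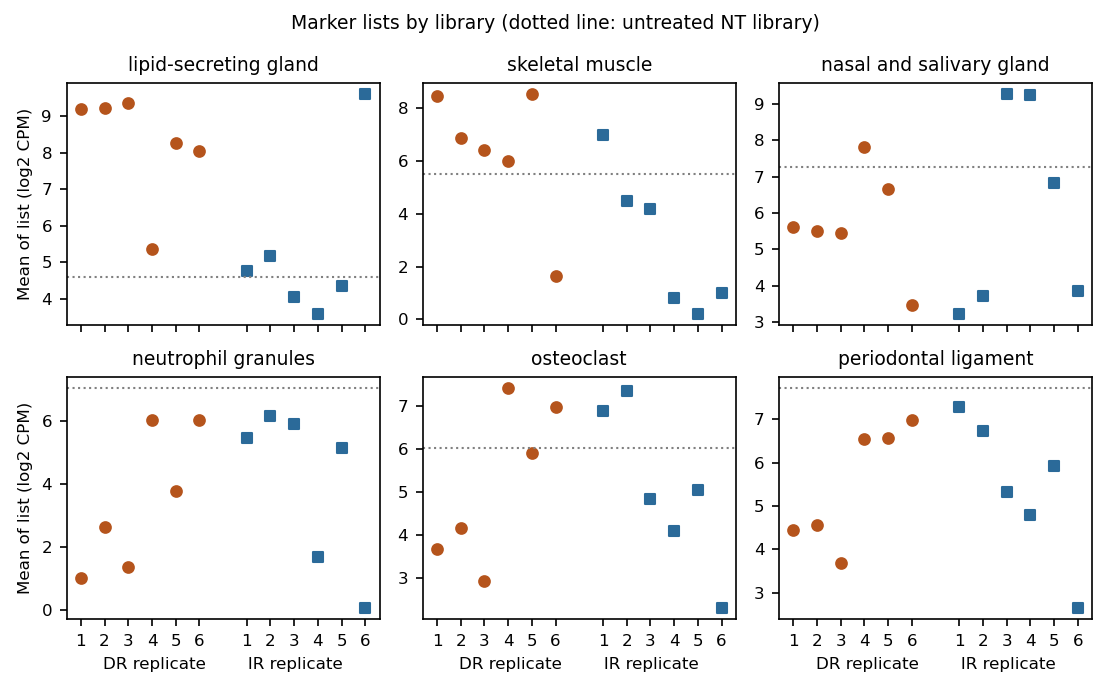
Mean log2 CPM of the tested members of 6 marker lists in each day 3 library (circles DR, squares IR), with the untreated library as a dotted line. Lipid genes are high in IR replicate 6 (9.61) and DR replicates 1 to 3 (9.20 to 9.36), where the osteoclast means are 2.31 to 4.16. DR replicates 5 and 6 have both means high (lipid 8.26 and 8.05, osteoclast 5.92 and 6.98) and IR replicate 4 has both low (3.59 and 4.09).

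Inflammatory genes divided the libraries within each arm rather than between the arms. Il1b, the cytokine interleukin-1 beta, had 2.19, 5.53 and 10.67 log2 CPM in DR and -0.58, 5.55 and 9.96 in IR, and Il6 had -0.33 to 4.69 and -1.77 to 5.13. DR replicates 4, 5 and 6 and IR replicates 1 and 2 held the 5 highest levels of Il1b. The log2 fold change was 0.24 (SE 1.59) for Il1b and 0.10 (SE 1.39) for Il6. The monocyte chemokine Ccl2 and the neutrophil chemokine Cxcl1 stood at 0.58 (SE 1.20) and -0.43 (SE 1.38). Of 11 cytokine and receptor genes 7 were above 0 (median 0.11, and -0.17 with limma-voom), and of 15 chemokine genes 8 (median 0.03, and -0.03 with upper quartile scaling), with 0 called in any of the fits named above. Leaving out IR replicate 6 set these medians at -0.16 and -0.27.

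Neutrophil genes had a median of -0.60 (-0.85 without IR replicate 6) with 4 of 13 members above 0. S100a8, a calcium-binding protein that fills neutrophils, had 4.70, 8.25 and 11.94 log2 CPM in DR and 4.82, 10.15 and 11.39 in IR. Mpo, the granule peroxidase, spanned -1.77 to 4.49 in DR and -1.77 to 4.51 in IR, against 7.35 in NT. The macrophage list had 13 of 15 members above 0 at a median of 0.17, which became -0.09 without IR replicate 6. Cd68, of macrophage lysosomes, had 2.74, 4.50 and 7.12 log2 CPM in DR and 0.84, 4.19 and 7.05 in IR. Mrc1, the mannose receptor, had 3.77, 4.69 and 6.30 in DR and 3.09, 4.28 and 5.69 in IR. Interferon-stimulated genes had 14 of 17 members above 0 at a median of 0.34 (0.07 without IR replicate 6). Isg15 had its highest level, 7.33 log2 CPM, in DR replicate 4, and its log2 fold change was 1.27 (SE 0.865).

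Lymphocyte and antigen presentation genes lay mostly below 0. The T and NK cell list had 3 of 9 members above 0 (median -0.20), the B and plasma cell list 1 of 6 (median -0.42) and the MHC class II list 1 of 8 (median -0.25). Without IR replicate 6 these medians were -0.43, -0.70 and -0.54. Lck, the kinase that starts T cell receptor signalling, had 1.20, 1.56 and 2.12 log2 CPM in DR and 2.27 to 3.16 in IR replicates 1 to 5, so those libraries did not overlap, but IR replicate 6 was at 0.06. Its log2 fold change was -1.32 (SE 0.35) in the 23-library fit (edgeR adjusted p = 0.0301) and -1.08 (SE 0.468) with 12 libraries (edgeR adjusted p = 1). The T cell receptor subunit Cd3d, by comparison, spanned -1.77 to 2.56 in DR and -1.77 to 2.63 in IR. Cd74, the invariant chain of MHC class II, had 6.64, 8.15 and 8.48 log2 CPM in DR and 5.02, 8.55 and 9.05 in IR, with IR replicate 6 the lowest library.

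Osteoclast genes were at like levels in the 2 arms and split the libraries as the cytokines did. Acp5, tartrate-resistant acid phosphatase, had 4.20, 8.04 and 10.78 log2 CPM in DR and 3.27, 7.62 and 11.26 in IR, and NT stood at 9.40. Ctsk, the collagen-degrading cathepsin of osteoclasts, had 4.51, 8.99 and 11.72 in DR and 3.27, 8.61 and 11.65 in IR. Their log2 fold changes were -0.08 (SE 1.21) and 0.30 (SE 1.25), and 6 of 10 osteoclast genes were above 0 with a median of 0.05 (-0.23 without IR replicate 6). Of the signals that form osteoclasts, Tnfsf11 (RANKL) had at most 4 counts in any of the 12 libraries, too few to test. Tnfrsf11b, its decoy receptor osteoprotegerin, spanned 1.48 to 4.70 log2 CPM in DR and 1.45 to 4.97 in IR, and the macrophage growth factor Csf1 spanned 2.71 to 5.39 and 1.63 to 5.12.

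Bone and dentine genes had medians below 0. Osteoblast and osteocyte genes had 1 of 16 members above 0 at a median of -0.47 (-0.76 without IR replicate 6), and 0 were called. Bglap, osteocalcin, had 5.92, 8.94 and 9.80 log2 CPM in DR and 4.35, 9.81 and 10.80 in IR, all below the 13.49 of NT. Its log2 fold change was -0.92 (SE 0.798) with 12 libraries and -1.25 (SE 0.583) without IR replicate 6 (edgeR adjusted p = 0.403). Runx2, the master regulator of osteoblasts, stood at -0.36 (SE 0.61). Sp7 had at most 1 count per library and was not tested. Odontoblast and pulp genes had 1 of 10 above 0 at a median of -0.55 (-0.86 without IR replicate 6). Dspp, which makes dentine's main non-collagen proteins, had 0 to 264 counts in DR and 0 to 14 in IR against 9035 in NT, so the defining odontoblast marker was absent or scarce in replanted samples of both arms. Pax9, a transcription factor of dental mesenchyme, was at -0.84 (SE 0.685) with 12 libraries and was called lower at -1.12 (SE 0.322) in the 23-library fit (edgeR adjusted p = 0.046).

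No periodontal ligament gene was called in the edgeR test of 12 libraries, and the arms overlapped for the members named here. Postn, periostin, had 4.23, 7.18 and 9.47 log2 CPM in DR and 2.37, 7.03 and 10.14 in IR, against 11.38 in NT. Its log2 fold change was -0.12 (SE 1.11), and it was called in the other direction, at 4.22, with 3 tissue covariates. Aspn, asporin, spanned 1.70 to 4.67 in DR and 1.63 to 5.00 in IR. Col1a1 and Col3a1, the main fibrillar collagens of the ligament, had log2 fold changes of -0.28 (SE 0.915) and 0.28 (SE 0.909). The collagen list had 3 of 11 members above 0 (median -0.25), the ligament list 3 of 12 (median -0.08, and 0.01 with limma-voom) and the matrix protease list 4 of 16 (median -0.10, and 0.10 with limma-voom). Without IR replicate 6 these medians were -0.54, -0.38 and -0.40. Mmp13, a collagenase, spanned 5.06 to 11.30 log2 CPM in DR and 2.78 to 11.90 in IR, and its inhibitor Timp1 5.77 to 11.08 and 3.38 to 11.39. Col8a1, a short-chain collagen, spanned 3.87 to 5.31 log2 CPM in DR, 5.60 to 6.05 in IR replicates 1 to 5 and 1.63 in IR replicate 6, and was called lower in the 23-library fit (edgeR adjusted p = 0.0283). With 12 libraries it stood at -0.74 (SE 0.521). Fbln5, which assembles elastic fibres, was called higher in the 23-library fit at 3.27 (SE 0.647; edgeR adjusted p = 0.00791) and stood at 0.79 (SE 1.06) with 12 libraries. Fbln5 was at 4.64 to 7.35 log2 CPM in 5 DR libraries, at 2.62 in DR replicate 4 and at 7.91 in IR replicate 6. The elastic fibre list had a median of 0.08 with 9 of 14 above 0, which became -0.17 with 4 of 14 without IR replicate 6.

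Signalling and vessel genes gave medians near 0, some of which took the other sign with limma-voom: -0.17 for TGF-beta and BMP genes, -0.06 for Wnt genes, -0.07 for endothelial genes, -0.07 for Schwann cell genes, 0.13 for pericyte and smooth muscle genes and 0.00 for osteoclast-forming signals. Without IR replicate 6 they were, in the same order, -0.46, -0.36, -0.33, -0.41, 0.21 and -0.22. Tgfb1 spanned 1.35 to 4.80 log2 CPM in DR and -0.58 to 4.80 in IR. The Wnt target Axin2 had a log2 fold change of -0.99 (SE 0.693), and the endothelial gene Pecam1 -0.03 (SE 0.578). Gingival epithelium genes had a median of -0.86 (-1.15 without IR replicate 6) with 2 of 14 above 0, and its sign was lost with limma-voom, at 0.07. Krt5, the basal keratin, was at 6.60 log2 CPM in IR replicate 1 and spanned 2.31 to 4.21 in DR and 0.67 to 6.60 in IR. Krt76, a keratin of differentiated oral epithelium, was called lower in the 23-library fit at -3.04 (SE 0.845; edgeR adjusted p = 0.0391) and stood at -2.76 (SE 1.17) with 12 libraries. It was at 5.49, 3.02 and 2.93 log2 CPM in IR replicates 1, 3 and 5. IR replicates 2, 4 and 6 were at -0.69, -0.38 and -1.77, and DR spanned -0.12 to 1.42.

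Hypoxia response genes, which are induced when oxygen is low, had a median of 0.10 (0.07 without IR replicate 6) with 14 of 19 above 0, and Vegfa spanned 4.02 to 6.83 log2 CPM in DR and 4.25 to 6.66 in IR. Medians were -0.05 for p53 and cell death genes, -0.18 for immediate early genes and -0.17 for cell cycle genes, and -0.19, -0.44 and -0.45 without IR replicate 6. The proliferation marker Mki67 stood at -0.48 (SE 0.757). Tyms, which makes thymidylate for DNA synthesis, was called higher at 1.84 (SE 0.515), and Jund, an AP-1 factor, lower at -0.65 (SE 0.182), in the 23-library fit. With 12 libraries they stood at 0.61 (SE 0.698) and -0.43 (SE 0.37). Tyms was at 2.71 to 4.21 log2 CPM in DR, 0.57 to 2.35 in IR replicates 1 to 5 and 4.81 in IR replicate 6. Erythroid genes had a median of -0.95, mast cell genes 0.08 and cartilage genes 0.30. Without IR replicate 6 these were -1.26, -0.22 and -0.02. The cartilage median became -0.24 with limma-voom and -1.66 when 6 libraries were left out.

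**Figure D5:**
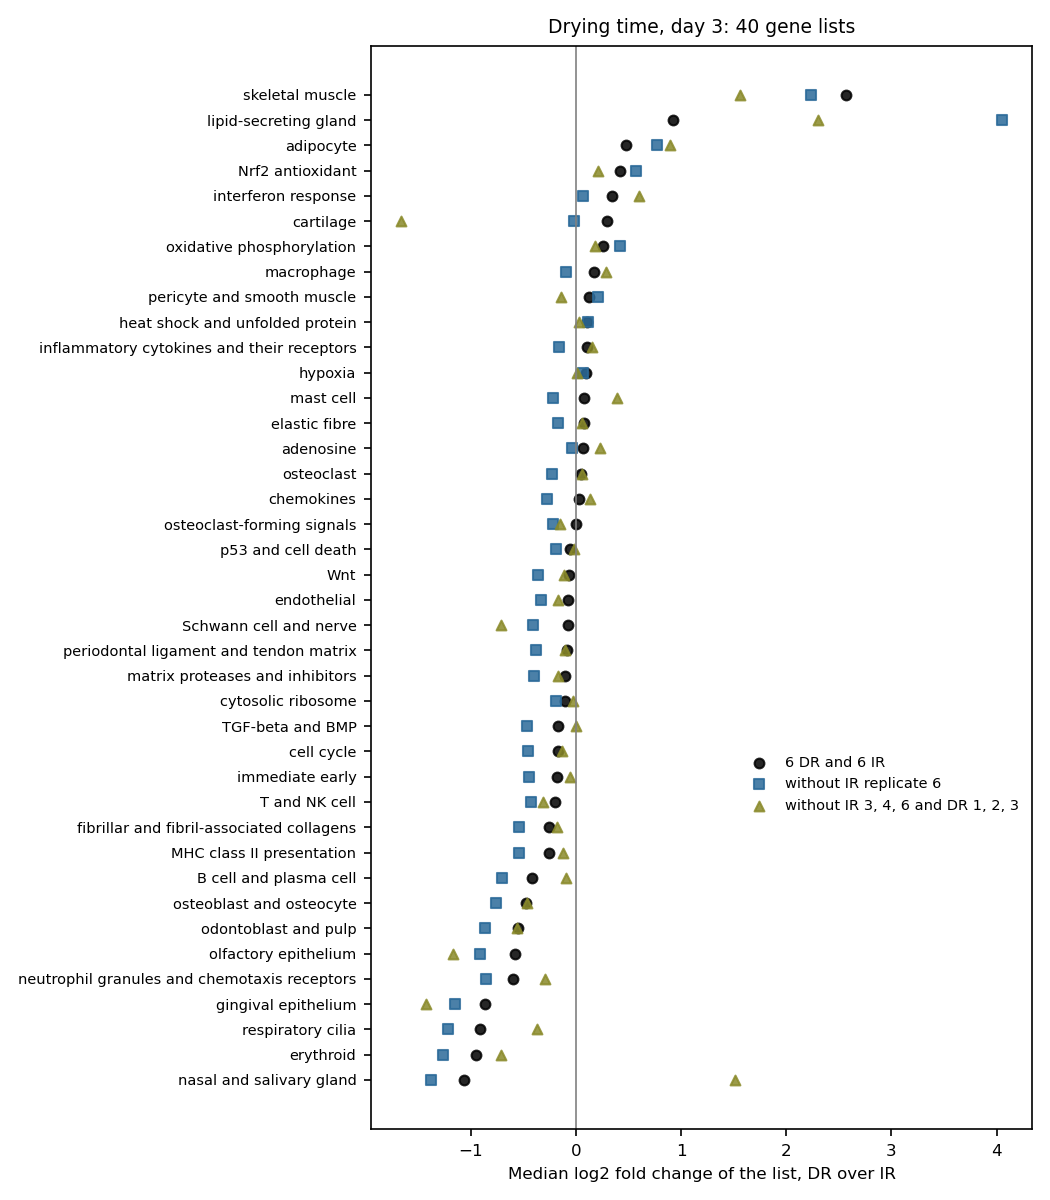
Median log2 fold change (DR over IR) of the tested members of 40 gene lists with all 12 libraries (circles), without IR replicate 6 (squares) and without 6 libraries (triangles). The lipid list moves from 0.92 to 4.05 without IR replicate 6, and the nasal list takes the other sign without the 6 libraries.

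The genes of smallest p with all 12 libraries had edgeR adjusted p of 1. Tmem220 had the smallest unadjusted p among the higher genes, with 3.19, 3.81 and 3.99 log2 CPM in DR and 2.03, 2.66 and 3.41 in IR. Only DR replicate 5 fell under the top IR library, IR replicate 6, and the log2 fold change was 1.06 (SE 0.262). In the 23-library fit Tmem220 was called at 1.24 (SE 0.23, edgeR adjusted p = 0.00716). Without IR replicate 6 at day 3 alone it was not (edgeR adjusted p = 0.0654). Ada, adenosine deaminase, which clears the anti-inflammatory nucleoside adenosine, had 2.66, 5.30 and 6.27 log2 CPM in DR and 0.97, 2.65 and 3.74 in IR. DR replicates 1, 4, 5 and 6 were above all IR libraries and DR replicates 2 and 3 were among them, and NT was at 6.72. Its log2 fold change was 2.38 (SE 0.674) with 12 libraries and 2.25 (SE 0.735) without IR replicate 6 (edgeR adjusted p = 0.236). The other adenosine genes showed no such difference: Nt5e, which makes adenosine, stood at -0.58 (SE 0.456) and the list median was 0.07 (-0.04 without IR replicate 6). Folr1, a folate receptor, had 6.49 to 7.54 log2 CPM in DR replicates 1 to 3 and -1.13 to 2.58 in the other DR libraries, against 0.68 to 3.99 in IR.

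Among the lower genes of smallest p, Parp16, an ADP-ribosyltransferase of the endoplasmic reticulum, had 1.70, 2.34 and 2.58 log2 CPM in DR and 1.80, 3.33 and 4.73 in IR. IR replicates 1 to 5 were all above the DR libraries and IR replicate 6 was not, and the log2 fold change was -1.54 (SE 0.482). Ogt, which attaches O-GlcNAc to proteins, was at -0.45 (SE 0.158), and the guidance cue Sema3f at -0.63 (SE 0.219). Trap1 and Ogfod3 rested on IR replicates 3 and 4: Trap1 was at 10.45 and 12.36 log2 CPM there and at 4.10 to 5.67 in the other IR libraries, and Ogfod3 was at 8.67 in IR replicate 4. These were also the libraries with 21.1% and 24.3% of counts in nasal and salivary gland genes, and the part of those genes in the result was not tested.

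Complete separation of the arms was as rare as calls. On TMM-scaled levels Ankrd17, an ankyrin repeat protein, was the only gene with every DR library above every IR library (0.0094% of genes tested), at 7.02 to 7.22 against 6.86 to 6.98 log2 CPM, a difference of 0.22 (SE 0.12). For no gene was every DR library below every IR library (0%). This turned with the scaling: with RLE scaling or with ribosomal RNA left out, 0 genes lay wholly above and 2 wholly below. Against the 5 other IR libraries, 96 genes lay wholly above (0.902%) and 32 wholly below (0.301%). The difference between the drying effects at day 3 and day 7, fitted over 24 libraries, was called for 0 of 11492 genes in edgeR, with 346 at an unadjusted p under 0.05 and a smallest adjusted p of 0.689.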

How the data were processed

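Libraries were made from 500 ng of total RNA with a QuantSeq 3′ kit, per the labels' protocols. The deposited values were raw read counts per gene made by the authors, and the submitters' processing notes name Bowtie2 and edgeR and list the builds mm10 and rn6 with no roles; the sources used here do not give the counting step. Of 17048 entries per library, 149 symbols were repeated and the entry of highest total was kept, leaving 16881 symbols.

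Here, genes passing filterByExpr were tested with edgeR 4.0.16 (R 4.3.3), TMM scaling and robust quasi-likelihood, on 12 libraries with the arm as the only term. Levels are log2 CPM with a prior count of 2. The standard error is the fold change over the root of the test's F. Alternatives were other scalings, no filter, DESeq2 1.42.0, limma-voom (limma 3.58.1), all replanted libraries, a replicate block, covariates and leaving libraries out. The fits were tested on simulated data. Shares of counts were compared by exact permutation (Python with SciPy).

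Genes were named as those of smallest p (8 each way, average log2 CPM of 3 or more), the first 2 measured members of 40 lists, list members called in the 23-library fit, the genes called without IR replicate 6 and those whose arms did not overlap. Markers tied to a tissue were named too. An item withheld from the lists is not reported here. Lists, members and the fits without single libraries were chosen with earlier results of these data known. The 23-library fit, leaving out DR 1, 2 and 3 with IR 6, and the alternatives for shares and separation, were added after seeing the data. Promoters are from RefSeq GRCr8; no coordinates of the deposited build were used.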

Additional observations from a re-analysis of the deposited data

Results flagged for a closer look

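In groups of 6 libraries, 64 of 274 groups held a library whose gap to its nearest neighbour was a large part of the group's range (Dixon's rule); chance gives about 1 in 20 of independent groups. Many of these genes were named because they were called once IR replicate 6 was left out, and they share libraries, so the number is a description and not a comparison with chance. IR replicate 6 accounts for 41 of them, DR replicate 4 for 12, IR replicate 1 and DR replicate 6 for 3 each, IR replicate 2 and DR replicate 3 for 2 each and IR replicate 4 for 1. The values below are log2 CPM unless a share is named, and causes were not tested.

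IR replicate 6 was the highest IR library, far from the others, for lipid genes and others called without it: Elovl3 11.31, Mogat1 11.52, Thrsp 14.51, Scd1 7.35, Fasn 11.07, Acly 11.86, Me1 11.10, Sdr16c6 11.42, RGD1308878 8.57, Aadac 11.32, Aadacl3 7.64, Fabp2 6.64, Sptlc3 10.87, Akr7a3 8.93, Atp1a4 4.46, Ctse 12.85, Scin 6.62, Tm6sf2 6.62 and Tmem86a 11.84. It was also highest for Slc7a11 8.49, Prdx1 10.14, Taldo1 11.03, Tkt 10.55, Mgst1 11.37, Fbln5 7.91, Atf4 10.08, Atp5b 9.58, Ndufb9 9.18, Sdhc 8.13 and Cox4i1 9.11, and its lipid list share was 4.71%.

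IR replicate 6 was far below the other IR libraries for Cd3d at -1.77, Cd74 at 5.02, Bglap at 4.35, Col1a1 at 8.40, Tgfb1 at -0.58, Pdgfrb at -1.77, Lck at 0.06, Pax9 at -1.05, Col8a1 at 1.63 and Jund at 5.62.

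DR replicate 4 was far below the other DR libraries for Elovl3 at 2.83, Mogat1 at 2.37, Thrsp at 5.14, RGD1308878 at -0.80, Sdr16c6 at 3.16, Aadac at 2.11, Akr7a3 at 0.97, Ctse at 4.81, Tm6sf2 at 0.49 and Cd3g at -1.77. It was far above them for Trap1 at 7.84 and for the nasal and salivary gland share at 5.14%.

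DR replicate 6 was far below for Pvalb at -0.36, Ckm at 1.61 and Axin2 at -1.77, and DR replicate 3 was above for Nqo1 at 5.22 and below for Pax9 at 1.63. IR replicate 1 was far above for Rabep2 at 7.01, Rps3 at 9.87 and the muscle share at 0.442%. IR replicate 2 was below for Sema3f at 3.12 and above for the ribosomal RNA share at 31.5%, and IR replicate 4 was above for Ogfod3 at 8.67.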

How the results depend on the processing

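The count of 0 called genes became 14 without IR replicate 6 (0 to 14 over the 12 libraries left out in turn), 836 with limma-voom and sample quality weights (763 higher), 406 with 3 tissue covariates (371 higher) and 576 in the 23-library fit. The 14 called genes included 9 of the 836. The 836 and the 576 shared 420 genes, and the 406 and the 576 shared 10. The other alternatives kept 0. The fit with a replicate block called 0 genes. Its paired check gave correlations of -0.451 to 0.226 between same-numbered libraries, and 0 libraries were closest to their own number, so numbers were not taken as pairs. The block set the lipid list at 3.11 and the adipocyte list at 1.38. List medians kept their value within the spread of libraries in 997 of 1040 alternatives, and single genes kept their side of the threshold, with uncalled genes of either sign counted as kept, in 3331 of 3447. Their sign was the other in 321 of the 3447, and in 313 of these the gene was not called in either fit.

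Covariates for the mean levels of the lipid, nasal and muscle lists moved list medians most: neutrophil 3.00, cytokine 4.01, chemokine 3.89, macrophage 2.59, T and NK cell 1.22, B cell 1.60, MHC class II 1.67, interferon 1.69, osteoclast 3.39, osteoclast signals 1.38, osteoblast 2.13, odontoblast 2.09, ligament 2.37, collagen 3.16, elastic fibre 1.68, protease 2.08, TGF-beta 1.88, Wnt 1.72, endothelial 1.53, pericyte 1.03, Schwann cell 1.06, gingival 1.08, Nrf2 -0.82, p53 0.70, immediate early 1.52, cell cycle 1.91, oxidative phosphorylation -0.51, adenosine 1.09, muscle -0.07, adipocyte 1.64, erythroid 1.68 and mast cell 1.47. Called genes of the opposite sign there were Cxcl1 6.42, Postn 4.22, Timp1 4.46, Tgfb1 3.24, Mki67 2.47 and Top2a 2.22. Fabp4 took the opposite sign at 3.34 with quality weights and 2.49 in the 23-library fit. The cause was not tested.

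Quality weights set the pericyte list at 0.70 and the lipid list at 4.09, the 23-library fit set the lipid list at 4.11, and limma-voom set the adipocyte list at 1.34. Without 6 libraries the nasal list was 1.51 and cartilage -1.66; without IR 6 and DR 1, 2 and 3 cartilage was -1.62 and adipocyte 1.14. Without single libraries, the lipid list median ran from 0.47 to 4.05, the muscle share difference from 0.276 to 0.541 percentage points and the lipid share difference from 0.723 to 1.86. Genes whose arms did not overlap numbered 2 with RLE or no ribosomal RNA (0 higher and 2 lower, against 1 higher and 0 lower), 2 with upper quartile scaling (1 each way), 5 without a filter (4 higher), and 1 to 128 without single libraries. Low counts limit Tnfsf11, Sp7 and Dspp, which were at or near 0.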
